A study of Homo sapiens with 4 samples.

Results

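Integrins are surface receptors made of 1 alpha and 1 beta chain, and a chain reaches the cell surface only with a partner. Leukocytes carry a family built on ITGB2 (CD18), which pairs with ITGAL, ITGAM, ITGAX or ITGAD and serves firm adhesion, phagocytosis and uptake of complement-coated particles. ITGB7 pairs with ITGA4 or ITGAE and is known for homing to and retention in gut tissue, and ITGB1 pairs with ITGA4, ITGA5 and other alpha chains to bind vascular ligands and fibronectin. Kindlin-3, the product of FERMT3, binds the cytoplasmic tails of beta chains and is needed, with talin, to switch integrins of blood cells into their binding state. The genes described here are 9 chains (ITGAX, ITGAM, ITGAL, ITGB2, ITGB7, ITGA4, ITGAE, ITGA5 and ITGB1) and FERMT3, 10 of the 58735 genes in the deposited tables, matched by Ensembl identifier and gene symbol. All 10 averaged 1 FPKM or more across the libraries, the filter on low genes, which 12296 genes passed. RNA was measured, not protein at the cell surface.

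RNA was sequenced from MOLM13, an established human line of acute myeloid leukaemia with the MLL::AF9 fusion, treated for 12 h with SD70 and MI-503 together (the combination), SD70 alone, MI-503 alone, or the vehicle DMSO. SD70 is known as a KDM4C demethylase inhibitor and MI-503 as an inhibitor of the menin-MLL interaction. The series was made to study a synergistic effect of the pair. Each group holds 1 library of this 1 cell line, doses are not given in the sources used here, and so no difference below has a replicate check.

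The libraries held 15093444, 14695753, 15937390 and 15550915 reads for the combination, SD70, MI-503 and DMSO, recovered from the deposited FPKM (reads per kilobase of exon, scaled for library size). Of 10 marker genes of myeloid leukaemia cells, 9 stood at 1 FPKM or more in DMSO, and their sum was 5012, 4049, 7268 and 6145 FPKM in the same order of libraries. Defining markers of other lineages were at 0 in all 4 libraries: CD2 and CD3E of T cells, MS4A1 of B cells, HBA1 and HBB of erythroid cells, GP9, PF4 and PPBP of megakaryocytes, EPCAM and CDH1 of epithelium, DCN of fibroblasts and KDR of endothelium. The 6 T cell markers summed to 14.6, 13.3, 9.97 and 11.2 FPKM, mostly TRAC, and the 4 endothelial markers to 26.2, 27.5, 16.4 and 11.8 FPKM, led by PECAM1, which myeloid cells also express. The part of these 2 lists in the results was not tested. The 4 B cell markers summed to between 0.927 and 1.82 FPKM, the 4 epithelial ones to between 1.04 and 2.72 FPKM, and the erythroid, megakaryocyte and fibroblast lists to at most 0.252 FPKM in any library. Mitochondrial ribosomal RNA took 1.43% and 1.497% of reads in the combination and SD70, against 0.928% and 0.853% in MI-503 and DMSO, and its part in the results was not tested.

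The order of the levels per kilobase differed between the libraries. ITGAL, ITGB2 and ITGA5 were the 3 highest in every library, and ITGAL ranked 161 among the 12296 genes by its mean of 157 FPKM. Below them the order changed. In SD70, ITGAX at 27.1 FPKM stood above ITGB1 at 20.6 FPKM, and ITGB7 stood at 15.2 FPKM, a level not distinct from that of ITGA4 (14.9 FPKM, ratio 1.02, 95% counting interval 0.943 to 1.10). In DMSO the lowest 4 were ITGAE at 2.71, ITGAM at 2.43, ITGAX at 2.41 and ITGB7 at 1.02 FPKM, and ITGAE, ITGAM and ITGAX could not be told apart by counting error between neighbours. ITGAE was last in SD70, MI-503 and the combination. Neighbours whose interval included 1 were also ITGAX and ITGB1 in the combination, and ITGA4 and ITGB1 as well as ITGAM and ITGB7 in MI-503. These intervals are exact (Clopper-Pearson); they hold for counting error alone, since reads amplified by PCR without molecular identifiers are not separate molecules.

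**Figure D1:**
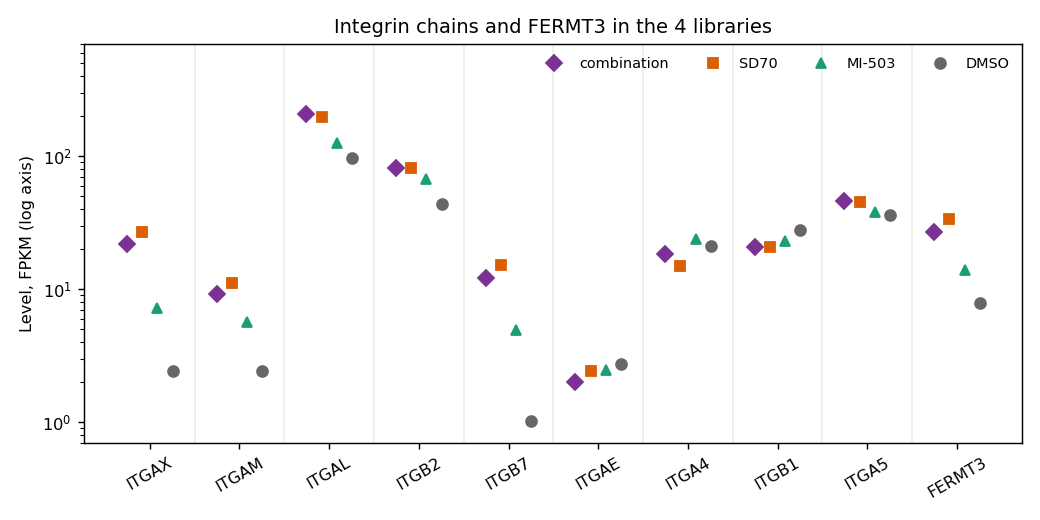
Level of each integrin chain and of FERMT3 in FPKM on a log axis, 1 point per library. ITGAX, ITGAM, ITGB7 and FERMT3 were highest in SD70 and lowest in DMSO, whereas ITGAE, ITGA4, ITGB1 and ITGA5 lay close together in the 4 libraries.

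Sequence upstream of the transcription start is shown for 3 genes that were higher with both agents (ITGAM, ITGB7 and FERMT3) and for ITGA4, which was not, to set both kinds of gene side by side. The sequences are from RefSeq on GRCh38.p14, matched by symbol for 7 of the 10 genes (ITGAX, ITGAL and ITGB2 had no match). Each runs 5′ to 3′ on the gene's strand and ends 1 base before the RefSeq start. Capitals mark GAGGAAG or its reverse complement CTTCCTC, letters of the kind bound by the myeloid factor PU.1, searched on both strands. They were chosen after the sequences were seen.
ITGAM (chr16:31259725-31259974, plus strand): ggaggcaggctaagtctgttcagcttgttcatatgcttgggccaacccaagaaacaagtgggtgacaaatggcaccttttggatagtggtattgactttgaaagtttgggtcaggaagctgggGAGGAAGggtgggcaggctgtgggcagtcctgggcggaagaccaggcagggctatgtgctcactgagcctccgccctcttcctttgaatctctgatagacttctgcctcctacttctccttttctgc
ITGB7 (chr12:53207252-53207501, minus strand): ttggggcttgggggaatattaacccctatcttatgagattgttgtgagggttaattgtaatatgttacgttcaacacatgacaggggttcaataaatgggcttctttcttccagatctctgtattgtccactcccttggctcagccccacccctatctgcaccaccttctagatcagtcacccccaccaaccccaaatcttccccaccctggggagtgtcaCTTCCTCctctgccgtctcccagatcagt
FERMT3 (chr11:64206471-64206720, plus strand): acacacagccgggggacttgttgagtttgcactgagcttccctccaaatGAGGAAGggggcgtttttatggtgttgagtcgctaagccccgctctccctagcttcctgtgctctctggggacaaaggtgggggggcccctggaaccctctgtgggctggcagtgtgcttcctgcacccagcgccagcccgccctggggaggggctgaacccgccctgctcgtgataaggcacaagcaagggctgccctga
ITGA4 (chr2:181457136-181457385, plus strand): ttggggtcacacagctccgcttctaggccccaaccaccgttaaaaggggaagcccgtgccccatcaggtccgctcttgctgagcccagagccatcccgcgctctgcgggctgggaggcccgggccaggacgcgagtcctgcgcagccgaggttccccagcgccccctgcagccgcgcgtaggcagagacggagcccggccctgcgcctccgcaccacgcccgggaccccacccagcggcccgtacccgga

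The letters stood once each in ITGAM, ITGB7 and FERMT3, beginning at positions -127, -29 and -201 relative to the start. ITGAE, which was not higher in any treated library, held them too, and ITGA4, ITGA5 and ITGB1 did not. So 4 of the 7 windows had a match, against 11.2% of 35116 windows of 250 bases before RefSeq starts. As the letters were chosen after these sequences were seen, the difference between these shares is no test of enrichment. GGGCGG, the letters bound by SP1, was in 4 of the 7 and in 42.6% of all windows, and TGTGGT, bound by RUNX factors, in 0 of the 7 and 10.98% of all. The windows of ITGAM and ITGB7 were 53.2% and 49.6% G or C, and those of ITGA4 and ITGB1 72.8% and 78.4%. The ITGB1 window lay at an inner RefSeq start, 47562 bases from the start of the gene in GENCODE. RefSeq starts of ITGA4 and ITGA5 lay 184 and 194 bases inside the GENCODE gene, so most of each window is annotated gene. For ITGAM, FERMT3, ITGAE and ITGB7 that distance was 8, 43, 55 and 56 bases. Windows with and without a match thus differed in position too. A match of letters is a description of the sequence and not a binding site.

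The question of what SD70 alone did to these genes was met by large differences in some chains and smaller ones in their partners. ITGAX, ITGB7, ITGAM, FERMT3 and ITGAL were at least 2-fold higher in SD70 than in DMSO, and none of the 10 was at least 2-fold lower. Folds for this count are on the log2(FPKM + 1) scale, which understates the change of low genes. Over all 12296 genes 6.01% were that much higher and 6.37% that much lower in SD70 (12.4% either way). Of those calls 48.6% were higher as deposited, against 59.9% after setting libraries to an equal FPKM total and 60.7% after setting them to equal reads. The median log2 difference was 0.95 over the 10 genes and -0.07 over all genes. The 10 genes were chosen with earlier results of these data known. A count or median above that of all genes, here and below, is thus no test of them as a set. In bulk RNA more cells that express a gene and more RNA per cell cannot be told apart.

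Among the partners of ITGB2, ITGAX (CD11c, a chain of dendritic cells and macrophages) was at chromosome 16, 31355134 to 31382997 (GRCh38). ITGAX had 21.7, 27.1, 7.19 and 2.41 FPKM in the combination, SD70, MI-503 and DMSO, from 2379, 2968, 794 and 258 reads. All 3 treated libraries were above DMSO, and the library with both agents lay between the 2 single agents. SD70 stood at 11.2 times DMSO in FPKM (95% counting interval 9.89 to 12.8), and its log2 difference of 3.04 ranked 8 of 12296 genes.

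ITGAM (CD11b, which with ITGB2 forms complement receptor CR3) lies just upstream of ITGAX, at 31259967 to 31332892. Its levels were 9.25, 11.1, 5.62 and 2.43 FPKM in the combination, SD70, MI-503 and DMSO. The order of the libraries was the same as for ITGAX, on a narrower range, with a ratio of 4.57 between SD70 and DMSO (3.93 to 5.33). ITGAX stood at 2.35 times ITGAM in the combination, 2.44 times in SD70 and 1.28 times in MI-503, and at 0.993 of ITGAM in DMSO, where the counting interval included 1.

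ITGAL (CD11a, which with ITGB2 binds ICAM proteins) is also on chromosome 16, at 30472658 to 30523185. It had 208, 198, 127 and 96.8 FPKM in the combination, SD70, MI-503 and DMSO, and so was the most abundant chain throughout. The ratio was 2.04 in SD70 (1.99 to 2.09), just past the 2-fold threshold, and 1.31 in MI-503 (1.27 to 1.34). ITGB2 itself, on chromosome 21 at 44885953 to 44931989, had 81.8, 81.3, 66.9 and 43.7 FPKM in the same order. Both libraries with SD70 held nearly the same level, 1.86 times DMSO in SD70 (1.80 to 1.93) and 1.87 times in the combination (1.81 to 1.94). ITGAD, the fourth partner of ITGB2 and not in the list, had 14, 13 and 2 reads in the combination, SD70 and MI-503, and 0 reads in DMSO, which allows up to 0.0450 FPKM (3 reads).

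Within the ITGB2 family ITGAX and ITGAM differed more than their common partner. Per kilobase, ITGAX stood at 0.333 of ITGB2 in SD70 (0.320 to 0.348), against 0.0552 in DMSO (0.0485 to 0.0626), a 6.03-fold difference of the ratio (5.29 to 6.89). For ITGAM over ITGB2 the ratio was 0.136 in SD70 and 0.0557 in DMSO, 2.45-fold apart (2.10 to 2.86). ITGAL over ITGB2 was at 2.43 in SD70 and 2.22 in DMSO, 1.10-fold apart (1.05 to 1.15), a small difference whose interval excluded 1. Of the summed FPKM of the 4 alpha partners, ITGAX made up 9.10% in the combination, 11.5% in SD70, 5.16% in MI-503 and 2.37% in DMSO. ITGAL made up 86.9%, 83.7%, 90.8% and 95.2%. The summed alpha level was 2.92, 2.90, 2.09 and 2.33 times that of ITGB2.

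**Figure D2:**
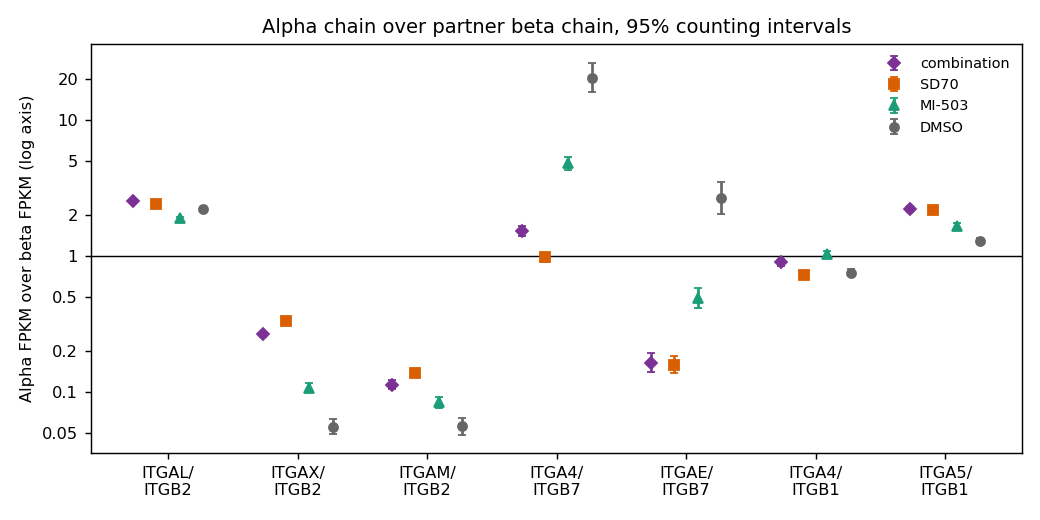
FPKM of an alpha chain over FPKM of its partner beta chain on a log axis, 1 point per library with its 95% counting interval. ITGA4 and ITGAE over ITGB7 were highest in DMSO (20.7 and 2.66), and ITGAX and ITGAM over ITGB2 were lowest there (0.0552 and 0.0557).

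The ITGB7 family turned on its beta chain. ITGB7, on chromosome 12 at 53191318 to 53207307, had 12.1, 15.2, 4.96 and 1.02 FPKM in the combination, SD70, MI-503 and DMSO, from 840, 1054, 347 and 69 reads. Its ratio to DMSO of 14.9 in SD70 (11.7 to 19.3) was the highest of the 10 genes, and its log2 difference of 3.005 ranked 9 of all genes tested. ZNF740, a gene on the opposite strand that overlaps ITGB7 in the annotation, stayed between 6.60 and 7.01 FPKM in the 4 libraries.

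The alpha partners of ITGB7, ITGA4 and ITGAE, did not differ 2-fold in any treated library. ITGA4 (CD49d), on chromosome 2 at 181457202 to 181536187, had 18.5, 14.9, 23.9 and 21.1 FPKM in the combination, SD70, MI-503 and DMSO. It was lower in SD70 (ratio 0.710, 0.668 to 0.754) and slightly higher in MI-503 (1.14, 1.08 to 1.20) than in DMSO. ITGAE (CD103, a chain of tissue-resident lymphocytes and some dendritic cells), on chromosome 17 at 3714628 to 3801243, had 1.99, 2.41, 2.44 and 2.71 FPKM, from 205, 248, 254 and 273 reads. Its ratio interval included 1 in SD70 (0.887, 0.744 to 1.06) and in MI-503 (0.901, 0.756 to 1.07), so no difference was detectable at this depth in these pairs. In the combination ITGAE was lower than in DMSO (0.734, 0.609 to 0.882). The gene HASPIN lies on the opposite strand of ITGAE and had 233, 255, 367 and 427 reads. Strand use in the counting was not stated, so reads of overlapping genes cannot be told apart.

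The proportion of ITGA4 to ITGB7 in SD70 was 0.0476 of that in DMSO (0.0370 to 0.0611). ITGA4 over ITGB7 was 0.983 in SD70 (0.910 to 1.06), against 20.7 in DMSO (16.3 to 26.6), so ITGB7 was level with ITGA4 per kilobase in SD70 only. The same ratio was 1.52 in the combination and 4.83 in MI-503. ITGAE over ITGB7 was 0.158 in SD70 (0.137 to 0.182) and 2.66 in DMSO (2.04 to 3.52), with 0.164 in the combination and 0.493 in MI-503. Of 7 pairs of alpha and beta chain with reads in every library, 4 had a ratio at least 2-fold apart in SD70 and DMSO: both pairs with ITGB7, and ITGAX and ITGAM over ITGB2. The same 4 pairs did so between the combination and DMSO, and the 2 pairs with ITGB7 did so between MI-503 and DMSO. The 2 pairs with ITGB7 share that chain, so they are not independent, and no share over other pairs of genes is given. These ratios carry no pseudocount. With a pseudocount of 5 the count was 3 for SD70 and 3 for the combination against DMSO, and with 0.1 it was 3 for the combination.

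Neither ITGB1 nor ITGA5 differed 2-fold in any treated library. ITGB1 (CD29), on chromosome 10 at 32900319 to 33005792, had 20.6, 20.6, 23.1 and 27.9 FPKM in the combination, SD70, MI-503 and DMSO. The treated libraries were all below DMSO, with ratios of 0.737 (0.694 to 0.782), 0.738 (0.695 to 0.784) and 0.825 (0.779 to 0.874). ITGA5 (CD49e, the fibronectin receptor chain), on chromosome 12 at 54395261 to 54419460, had 46.0, 45.2, 38.1 and 36.1 FPKM in the same order. It was 1.25 times DMSO in SD70 (1.20 to 1.30) and 1.05 times in MI-503 (1.01 to 1.10), where the interval included 1 after setting libraries to an equal FPKM total. ITGA5 over ITGB1 was 2.24, 2.19, 1.65 and 1.29, a 1.70-fold difference of the ratio between SD70 and DMSO (1.58 to 1.82). ITGA4 over ITGB1 was 0.724 in SD70 and 0.754 in DMSO, 0.961-fold apart (0.883 to 1.05), and 1.04 in MI-503. ITGB7 over ITGB1 was 0.589, 0.737, 0.215 and 0.0365 in the combination, SD70, MI-503 and DMSO.

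**Figure D3:**
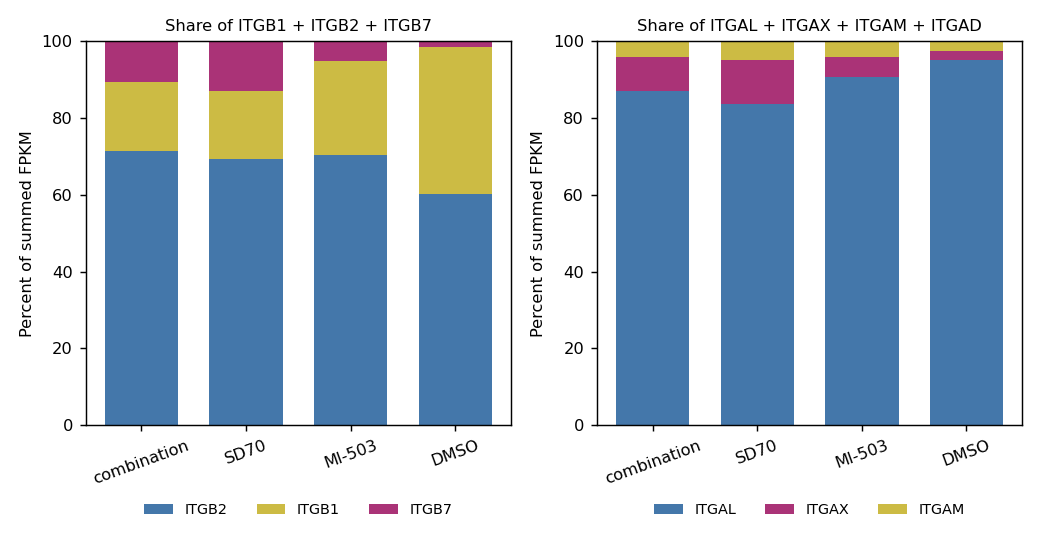
Left, share of each beta chain in the summed FPKM of ITGB1, ITGB2 and ITGB7; right, share of each alpha chain in the summed FPKM of the partners of ITGB2, 1 bar per library (ITGAD, at most 0.0858%, is too small to draw). ITGB7 took 10.6%, 13.0%, 5.23% and 1.40% of the beta chains in the combination, SD70, MI-503 and DMSO, and ITGB1 took 17.97%, 17.6%, 24.3% and 38.5%.

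FERMT3, the kindlin of blood cells, on chromosome 11 at 64206678 to 64223886, had 26.9, 33.9, 14.0 and 7.84 FPKM in the combination, SD70, MI-503 and DMSO. It was 4.33 times DMSO in SD70 (3.86 to 4.86), and the order of the libraries was that of ITGAX, ITGAM and ITGB7. Set against the summed FPKM of ITGB1, ITGB2 and ITGB7, the beta chains its product binds, FERMT3 stood at 0.235, 0.289, 0.147 and 0.108. TRPT1, which overlaps it on the opposite strand, had 365, 410, 289 and 236 reads, and its part in the FERMT3 level was not tested.

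With MI-503 alone the 4 genes with the highest ratios to DMSO were those of SD70, in the same order and with smaller ratios. ITGB7 and ITGAX were at least 2-fold higher in MI-503 than in DMSO, 2 of the 10, against 1.18% of all genes that were that much higher, and none was at least 2-fold lower (0.984% of all genes, 2.16% either way). The ratios were 4.87 for ITGB7 (3.75 to 6.40), 2.98 for ITGAX (2.59 to 3.44), 2.31 for ITGAM (1.963 to 2.73), 1.78 for FERMT3 (1.57 to 2.03) and 1.53 for ITGB2 (1.47 to 1.59). ITGAM, at a log2 difference of 0.95 with the pseudocount, lay just under the threshold. The median log2 difference was 0.49 over the 10 genes and -0.03 over all genes. The comparisons of SD70, MI-503 and the combination with DMSO share the 1 DMSO library, whose low levels of ITGB7 (69 reads), ITGAM (209 reads) and ITGAX (258 reads) enter all of them.

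**Figure D4:**
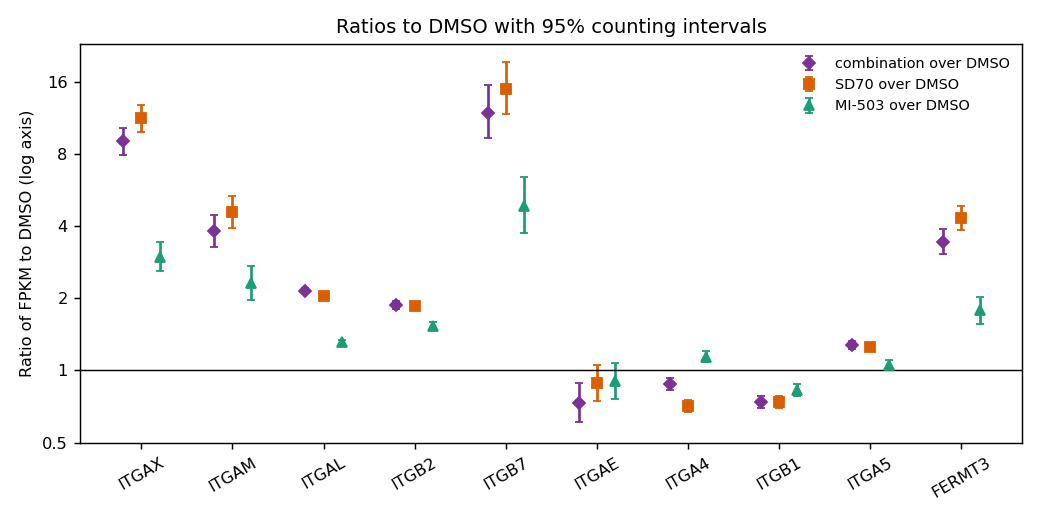
Ratio of FPKM to DMSO for the combination, SD70 and MI-503 on a log axis, with 95% counting intervals, 1 library per group. ITGB7 and ITGAX lay farthest above 1 in every treated library, and ITGB1 lay below 1 in all 3.

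The combination was set against DMSO and against each agent alone. Against DMSO, the same 5 genes as with SD70 alone were at least 2-fold higher (ITGB7, ITGAX, ITGAM, FERMT3 and ITGAL) and none was that much lower. Of all genes 4.98% were that much higher and 3.76% that much lower (8.73% either way). ITGB7 was 11.9 times DMSO (9.30 to 15.4) and ITGAX 9.01 times (7.92 to 10.3). Against SD70 alone, none of the 10 differed 2-fold, a count near the share of 1.8% over all genes (0.846% higher, 0.952% lower). By counting interval 5 of the 10 were below 1, 2 above it and 3 included it. The share of all genes by this measure is not given here, so the counts do not set these genes apart. The interval included 1 for ITGB2, ITGA5 and ITGB1. ITGAX (ratio 0.802, 0.759 to 0.846), ITGAM (0.833, 0.758 to 0.916), ITGB7 (0.797, 0.727 to 0.874) and FERMT3 (0.795, 0.738 to 0.856) were each lower in the combination than in SD70. ITGAE was also lower, with an interval that just excluded 1 (0.827, 0.684 to 0.999). ITGA4 was higher (1.24, 1.16 to 1.32), and ITGAL slightly so (1.05, 1.03 to 1.07), which did not hold after setting libraries to an equal FPKM total. Against MI-503 alone, ITGAX (3.02, 2.79 to 3.28) and ITGB7 (2.44, 2.15 to 2.78) were at least 2-fold higher in the combination, 2 of the 10, against 2.74% of all genes, and none was that much lower, against 1.64% (4.38% either way).

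The direction of the MI-503 difference was opposite without and with SD70 for 4 genes. ITGAX, ITGAM, ITGB7 and FERMT3 were higher in MI-503 than in DMSO and lower in the combination than in SD70, each with an interval that excluded 1, in 2 comparisons that share no library. This pattern was met by 4.95% of all genes, and the opposite one, met by 8.17% of all genes, by 0 of the 10. The 4 genes were all at least 2-fold higher in SD70 than in DMSO, and the share among such genes is not given here. These counts thus do not set the 4 genes apart. If the 2 single-agent ratios multiplied, ITGB7 would stand at 72.6 times DMSO and ITGAX at 33.5 times. The observed ratios of 11.9 and 9.01 were 0.164 (0.125 to 0.215) and 0.269 (0.232 to 0.313) of those products. The same quotient was 0.361 for ITGAM (0.299 to 0.434), 0.446 for FERMT3 (0.385 to 0.517), 0.657 for ITGB2 (0.627 to 0.689) and 0.804 for ITGAL (0.778 to 0.831). Its interval included 1 for ITGA5 (0.965, 0.912 to 1.02) and ITGAE (0.918, 0.714 to 1.18). The quotient was above 1 for ITGB1 (1.21, 1.11 to 1.32) and, with an interval that just excluded 1, for ITGA4 (1.09, 1.002 to 1.18).

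**Figure D5:**
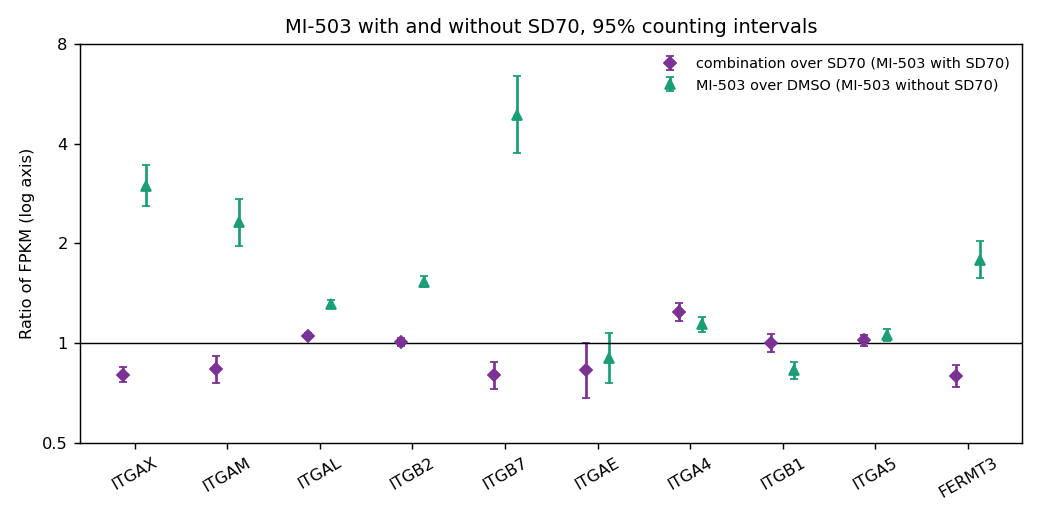
Ratio of FPKM on a log axis with 95% counting intervals, for the combination over SD70 and for MI-503 over DMSO, 1 library per group. ITGAX, ITGAM, ITGB7 and FERMT3 lay above 1 without SD70 and below 1 with it, and ITGA4 lay above 1 in both.

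On the log2(FPKM + 1) scale the departure from multiplied ratios was -1 or lower for these 4 genes, from -1.87 for ITGB7 to -1.08 for FERMT3, against 2.42% of all genes tested. The quantity contains the SD70 difference itself with a minus sign, and of the 739 genes past 2-fold upward in SD70 against DMSO 26.3% reached -1, with a median of -0.67. The 4 genes were among those 739, and each value is a single number without an error between cultures.

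A fit that used all 4 libraries set those with an agent against those without it. It was limma's moderated test on log2(FPKM + 1) with a term for each agent, and it takes the departure above as its error, with 1 residual degree of freedom. For SD70, ITGAX, ITGAM, ITGAL, ITGB7 and FERMT3 rose (5 of 10), against 7.86% of all genes that rose, and 0 of 10 fell, against 14.7% (22.5% either way). By limma, ITGAX rose by a log2 change of 2.26 ± 0.36 (SE, adjusted p = 0.0236) and ITGAL by 0.87 ± 0.12 (adjusted p = 0.0224). ITGB2 and ITGA4 did not pass in limma (adjusted p = 0.0637 and 0.0654), and ITGB1, ITGA5 and ITGAE had adjusted p of 0.166, 0.124 and 0.468. Limma-voom on the recovered reads called ITGAX, ITGAM, ITGAL, ITGB7 and FERMT3 as higher too. In limma-voom ITGB2 was also higher (adjusted p = 0.00074) and ITGA4 lower (adjusted p = 0.0115), 6 up and 1 down. Over all 12296 genes limma-voom called 1798 up and 2832 down, 4630 either way. At an unadjusted p under 0.05 limma had 7 members for SD70, against 5006 of all 12296 genes. For MI-503 limma called 0 of 10 and 0% of all genes, with 0 members at an unadjusted p under 0.05, against 401 of all genes. Limma-voom on the recovered reads also called 0 of 10, against 8 of all genes. It had 2 members at an unadjusted p under 0.05, against 293 of all genes. The SD70 calls were lost without the mean-variance trend (adjusted p in limma 0.0514 to 0.0690 for the 5 genes that rose) and with no filter on low genes (0.277 to 0.314).

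Genes around ITGAL, ITGAM and ITGAX on chromosome 16 were counted next. Within 200 kb of any of these 3, 41 other protein-coding genes are annotated, ITGAD among them, of which 24 passed the filter. In SD70 0 of the 24 were at least 2-fold higher than in DMSO and 1 was lower, DCTPP1, a pyrophosphatase that degrades unusual nucleotides (23.1, 19.0, 39.9 and 46.1 FPKM in the combination, SD70, MI-503 and DMSO). These counts are near the shares over all genes, 6.01% higher and 6.37% lower. Their median log2 difference was -0.08, against -0.07 over all genes. PYCARD, the gene of the inflammasome adaptor ASC, had 40.6, 43.4, 46.0 and 37.3 FPKM in the same order. ARMC5, on the far side of ITGAD, had 7.01, 6.34, 6.96 and 8.33 FPKM.

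Other genes of the integrin pathway were read from lists that held the remaining chains, the activation machinery, signalling proteins, ligands and tetraspanins. The lists were chosen with earlier results of these data known, so a count above the share of all genes is no test. Of 17 other integrin chains 3 passed the filter (ITGA7, ITGAV and ITGB5) and 0 differed 2-fold in any of the 3 comparisons with DMSO. ITGA7, a chain known from muscle, came nearest, with 16.3, 17.98, 11.3 and 8.66 FPKM in the combination, SD70, MI-503 and DMSO. Without the pseudocount its ratio between SD70 and DMSO was 2.08 (1.91 to 2.26). The beta chains ITGB3, ITGB6 and ITGB8 had at most 0.0147 FPKM in any library.

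Of 20 activation and adaptor genes 18 passed. FYB1 (ADAP), an adaptor that links antigen receptors to integrins, was at least 2-fold higher in SD70, MI-503 and the combination than in DMSO, at 8.64, 3.82 and 6.93 FPKM, against 1.25 FPKM in DMSO. FERMT1, the kindlin best known from epithelium, was lower, at 2.10, 1.34, 4.89 and 5.96 FPKM in the combination, SD70, MI-503 and DMSO, so that the 2 expressed kindlins went opposite ways. FLNA, the actin cross-linker that competes with talin on beta chain tails, had 181, 175, 104 and 87.3 FPKM and was past 2-fold on the log2(FPKM + 1) scale in the combination only, its ratio of FPKM between SD70 and DMSO being 2.001. In this list 1 gene was higher and 1 lower in SD70, 1 and 0 in MI-503, and 2 and 1 in the combination. Over all genes 6.01% were higher and 6.37% lower in SD70, 1.18% and 0.984% in MI-503, and 4.98% and 3.76% in the combination. TLN1, talin itself, had 81.9, 84.0, 78.4 and 69.8 FPKM, so that unlike FERMT3 its ratio between SD70 and DMSO was 1.20 (1.17 to 1.24).

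Among 19 tested of 24 focal adhesion and signalling genes, 3 passed 2-fold upward and 0 downward in SD70, against 6.01% and 6.37% of all genes. Among them were the kinase genes FGR and SRC, and FGR is a Src-family kinase that acts downstream of ITGB2 in phagocytes. FGR had 7.46, 6.57, 3.21 and 0.667 FPKM in the combination, SD70, MI-503 and DMSO, and SRC had 1.94, 2.13, 0.723 and 0.450 FPKM. The same count was 1 in MI-503 (FGR) and 3 in the combination, with 0 lower in both, against 1.18% and 4.98% of all genes higher. The list's median log2 difference was 0.37 in SD70, 0.13 in MI-503 and 0.43 in the combination.

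Of 25 ligands 9 passed, and 4 were higher in SD70 than in DMSO, against 6.01% of all genes. ICAM1 and ICAM3, which bind ITGAL with ITGB2, had 4.03 and 6.60 FPKM in SD70, against 0.821 and 1.95 FPKM in DMSO. C3, whose fragment iC3b is bound by ITGAM and ITGAX with ITGB2, had 4.28 FPKM in SD70 and 1.03 FPKM in DMSO, and F11R (JAM-A), a ligand of ITGAL, had 10.6 and 4.30 FPKM in SD70 and DMSO. The count was 1 higher in MI-503 (ICAM3) and 3 in the combination, against 1.18% and 4.98% of all genes, and 0 were lower. VCAM1 and CDH1, ligands of ITGA4 and ITGAE, were at 0 in all 4 libraries, and MADCAM1 lay between 0.459 and 0.805 FPKM. Of 11 tetraspanins and lateral partners 10 passed, and CD37 and CD82 were higher in SD70, 0 genes in MI-503 and CD37 in the combination, with 0 lower, against 6.01%, 1.18% and 4.98% of all genes higher. CD37, a leukocyte tetraspanin, had 42.0, 46.9, 26.7 and 16.8 FPKM, and CD82 had 12.9, 14.4, 10.1 and 6.20 FPKM, in the combination, SD70, MI-503 and DMSO.

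By pattern over the 4 libraries, ITGAX and ITGB7 resembled each other (distance 0.28), and so did ITGAM and FERMT3 (0.26). Likeness was measured as the Euclidean distance between log2(FPKM + 1) values centred on their mean, among 9891 protein-coding genes, with no test. Nearest to ITGAX were ZNF467, a zinc finger gene (distance 0.11, with 7.28, 9.62, 2.30 and 0.266 FPKM in the combination, SD70, MI-503 and DMSO), CNR2, the cannabinoid receptor of leukocytes (0.17), and the histone gene H2BC5 (0.18). Nearest to ITGB7 were ZNF467 (0.19), ITGAX (0.28) and CNR2 (0.33). Nearest to ITGAM were NKG7, a granule membrane gene of cytotoxic and myeloid cells (0.080, with 48.4, 54.9, 29.6 and 14.3 FPKM), SLC22A18 (0.10) and TNFSF14 (0.11), none of them an integrin.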

How the data were processed

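Total RNA was extracted with Trizol for Illumina sequencing, per the labels' protocols. The tools were BWA and Bowtie and the build hg38, with no version or role, per the submitters' processing notes; the counter and its strand setting are not given in the sources used here. The authors deposited 1 value per gene and library, read here as FPKM from the values. Multiplied by GENCODE 29 union-exon length these gave whole reads (within 0.01) for 100% of values above 0, and the library scaling matched median-of-ratios size factors. As the files held FPKM, the test fixed for normalized values was used: limma 3.58.1 in R 4.3.3 on log2(FPKM + 1), 4 libraries, terms for SD70 and MI-503, 2-sided, Benjamini-Hochberg adjusted p under 0.05 over 12296 genes. Scripts were tested on simulated data. A gene was counted as different at 2-fold on that scale; ratios carry no pseudocount, with exact 95% intervals by scipy 1.17.1 (ratios of ratios use a normal approximation of counting error). All 10 members were named; of each list, at most 4 genes at least 2-fold from DMSO, largest first. TLN1, ITGA7, PYCARD, ARMC5, ITGB3, ITGB6, ITGB8, VCAM1, CDH1 and MADCAM1 were named after their values were seen. Members and lists were chosen with earlier results of these data known. Some genes of the lists are not reported here.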

Additional observations from a re-analysis of the deposited data

Results flagged for a closer look

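For 4 genes the MI-503 difference went in opposite directions without and with SD70, in single libraries, and the difference between the 2 effects was not tested for want of replicates. The MI-503 ratio with SD70 (combination over SD70) divided by that without it (MI-503 over DMSO) was 0.269 for ITGAX, 0.361 for ITGAM, 0.164 for ITGB7 and 0.446 for FERMT3.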

How the results depend on the processing

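No paired analysis was possible because each group has 1 library, and for the same reason none could be left out. With a pseudocount of 5, members at least 2-fold different came to 0 for MI-503 against DMSO (2 with a pseudocount of 1). They came to 1 (2) for the combination against MI-503. At that setting members with a departure of 1 log2 unit came to 0 (4). Pairs of alpha and beta chain came to 0 and 1 in those 2 comparisons, against 2 and 3 with no pseudocount. Member counts in the other comparisons, with no filter, at a mean of 5 FPKM and under both other scalings, stayed within 1.5 times. The 4 genes with opposite MI-503 directions were also 4 under both scalings, a check added after seeing the data. Over all genes, the 2-fold counts for SD70, MI-503 and the combination against DMSO, then the combination against SD70 and against MI-503, were 1522, 266, 1074, 221 and 539. They were 2322, 624, 1805, 413 and 973 with a pseudocount of 0.1, and 462, 20, 266, 14 and 79 with 5. They were 886, 52, 572, 17 and 207 at a mean of 5 FPKM, where fewer genes were tested, and with no filter 527, 562 and 878 for MI-503 against DMSO and the combination against SD70 and against MI-503. In the additive fit limma called 5 members and 2768 genes for SD70, but 0 and 0 without the trend or with no filter; limma-voom called 7 members (6 up, ITGA4 down), 4630 genes for SD70 and 8 for MI-503, against 0. The cause was not tested. Of 295 alternative values for single members, 245 moved by less than the distance from the centre of the log2 counting interval to its end. The other 50 moved by more, and 0 of those past 2-fold changed sign. The 245 include all values with no filter and at a mean of 5 FPKM. Those settings only choose which genes are kept, so they cannot move a member's value or its 2-fold call. Intervals for ITGA5 (MI-503 over DMSO), ITGAL (combination over SD70), and ITGAE and ITGB1 (combination over MI-503) came to include 1 with an equal FPKM total, and that for ITGAE also with equal reads.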
